A study of Mus musculus with 15 samples.

Results

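Olfactory receptor (Olfr) genes whose probes gave signal in mouse kidney were examined. A gene was counted as detected when a probe named to it was well above background, by the scanner software's own mark, on at least 3 of the 15 arrays, and the probe with the brightest mean signal stood for the gene. The rule was met by 198 of the 1070 Olfr genes on the array, against 16055 of all 20659 named genes. The genes were thus chosen by detection and brightness, and both are given below as a description.

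Frozen kidneys of male C57/BJ mice gave 100 ng of RNA each, which was labelled with Cy3 for 1-colour Agilent arrays, with 1 mouse per array. Mice 6 weeks old had lost the left kidney (uninephrectomy, UNX) or had a sham operation, and were then fed a high-fat diet (HFD) or a control chow that the labels also call low fat (LFD) for 20 weeks. The groups were HFD-UNX (4 arrays), HFD-sham (3 arrays), LFD-UNX (4 arrays) and LFD-sham (4 arrays), out of 6 mice per group in the labels. The labels name no transgene or deletion, and kidney RNA mixes the organ's cell types.

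Olfactory receptors are G protein-coupled receptors that bind odorants in the nose. An olfactory neuron expresses mostly a single receptor gene, and its receptor signals through the G protein subunit Gnal, the adenylyl cyclase Adcy3 and a cyclic nucleotide-gated channel. A few of these receptors are known outside the nose. In mouse kidney, Olfr78 is known from renal arterioles, where short-chain fatty acids activate it and renin release is affected, Olfr558 from renal blood vessels, and Olfr1393 from the proximal tubule, where it bears on glucose handling. Olfr544 responds to azelaic acid and is best known from mouse adipose tissue and liver.

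All 12 kidney markers, among them Umod of the thick ascending limb, Aqp2 of the collecting duct and Nphs1 of the podocyte, were well above background on all 15 arrays. All HFD arrays were scanned on 1 day, on slides 1 and 2, and all LFD arrays on another, with LFD-UNX on slide 4 and LFD-sham on slide 3. Diet and scan day therefore cannot be told apart, nor can surgery and slide within the LFD. Levels are given as the log2 of a signal over its array's 75th percentile, called the normalised log2 signal. That percentile was 669 to 3275 intensity units on HFD arrays and 1347 to 1913 on LFD arrays. The floor of an array, its lowest signal marked well above background, was -7.19 to -6.07 on HFD arrays and -5.94 to -5.22 on LFD arrays. Every LFD floor lay above every HFD floor, so a dim receptor could be called on HFD arrays at levels that could not be called on LFD arrays.

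The annotated upstream windows of 3 receptors detected on all arrays are shown: Olfr544 and Olfr558, since they are among the receptors studied outside the nose, and Olfr1443, since it alone held a match to CCCNNGGG among the receptors detected on all arrays. Each window holds the 250 bases before the gene start in RefSeq's annotation of GRCm38.p6, 5′ to 3′ on the gene's strand, with motif matches in capitals. Only that of Olfr1443 holds a match.
Olfr544, chr7:102488308-102488557, minus strand: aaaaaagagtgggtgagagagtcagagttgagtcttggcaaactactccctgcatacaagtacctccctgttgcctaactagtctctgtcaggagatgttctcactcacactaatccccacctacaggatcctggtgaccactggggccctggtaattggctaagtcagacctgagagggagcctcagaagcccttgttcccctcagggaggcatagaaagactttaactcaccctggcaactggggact
Olfr558, chr7:102702073-102702322, plus strand: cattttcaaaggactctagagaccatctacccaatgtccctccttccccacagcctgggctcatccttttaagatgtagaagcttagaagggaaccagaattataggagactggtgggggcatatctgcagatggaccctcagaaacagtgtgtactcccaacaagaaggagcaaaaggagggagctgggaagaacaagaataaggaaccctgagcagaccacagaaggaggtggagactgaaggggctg
Olfr1443, chr19:12677916-12678165, plus strand: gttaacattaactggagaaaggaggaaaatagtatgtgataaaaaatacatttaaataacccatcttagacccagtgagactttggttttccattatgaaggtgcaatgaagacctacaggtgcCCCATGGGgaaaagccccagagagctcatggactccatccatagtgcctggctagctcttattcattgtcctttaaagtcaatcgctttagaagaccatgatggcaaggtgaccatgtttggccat
The motifs searched, on both strands, were CCCNNGGG (the core of the Olf/EBF site), TAATTA (a homeodomain core) and TATAAA (the TATA box). A window was found for 33 of the 39 receptors detected on all arrays. For 27 of those 33 the annotated start was the start codon, so that their windows need not reach the true start of transcription. The 3 windows shown are not among those. CCCNNGGG occurred in 3.03% of these windows, in 2.98% of 571 windows of Olfr genes seen on no array, and in 3124 of 26081 windows of other genes. TAATTA occurred in 15.2% of the windows of receptors detected on all arrays, in 103 of 571 for receptors on no array and in 4.42% for other genes. TATAAA occurred in 33.3%, in 40.3% and in 3133 of 26081 of these windows. The annotated start was the start codon for 72.2% of the windows of receptors on no array but 4.37% of those of other genes, so receptor windows and other windows cover different kinds of sequence. The shares are a description without a test.

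Most receptor genes gave no call in kidney. Of the 1070 Olfr genes, 680 (63.6%) were well above background on no array, against 16.2% of all named genes. Just inside the rule, 20 genes were called on exactly 3 arrays, with mean normalised log2 signals of -7.82 to -6.00. Just outside it, 51 genes were called on exactly 2, with means of -7.88 to -6.24. These ranges overlap over most of their length and reach below the floors, so the rule separates genes near background that differ little in level.

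More receptor genes were called on HFD arrays than on LFD arrays. The number well above background was 180, 181, 200 and 190 on HFD-UNX arrays, 117, 215 and 197 on HFD-sham arrays, 69, 106, 120 and 96 on LFD-UNX arrays and 56, 86, 86 and 80 on LFD-sham arrays. The diets overlapped at HFD-sham replicate 1, the array with the lowest 75th percentile signal, which lay below LFD-UNX replicate 3. The means were 183 ± 31.4 genes on 7 HFD arrays and 87.4 ± 20.2 on 8 LFD arrays (SD; two-sided exact permutation test over arrays, p = 0.000622, where the smallest possible is 0.000311). All probes were called more often too, 65.0 to 72.8% of them on HFD arrays and 59.8 to 65.0% on LFD arrays. As a share of all called probes, Olfr genes were 0.666 ± 0.0975% on HFD arrays and 0.352 ± 0.0724% on LFD arrays (SD, n = 7 and 8; exact permutation p = 0.000622).

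**Figure D1:**
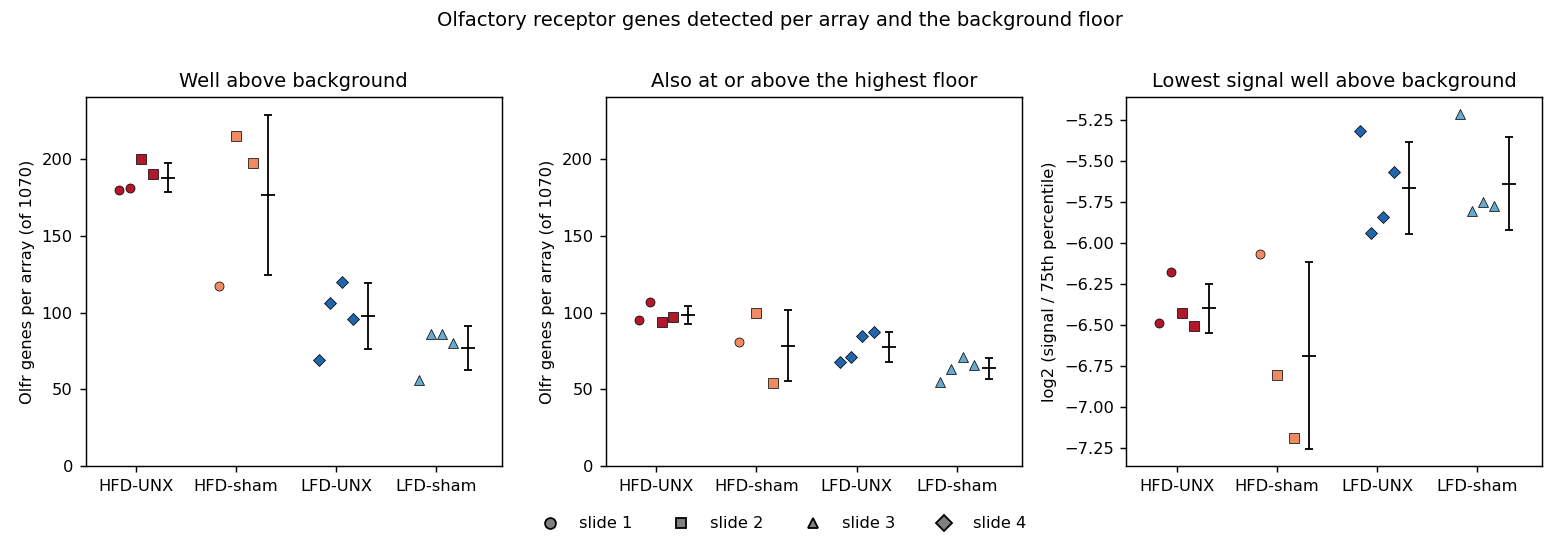
Olfr genes called per array (left), those also at or above the highest floor of any array (middle), and each array's floor as normalised log2 signal (right), by group; points are arrays, shapes are slides and bars are mean ± SD. HFD arrays held 117 to 215 called genes and LFD arrays 56 to 120, while every HFD floor lay below every LFD floor.

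The difference was smaller at a common threshold. At or above the highest floor of any array, -5.22, HFD arrays held 89.7 Olfr genes on average (range 54 to 107) and LFD arrays 70.8 (range 55 to 87; n = 7 and 8; exact permutation p = 0.0283). The ranges overlapped, and HFD-sham replicate 3 was the lowest of all arrays. Measures of background moved with diet and scan day as well. The SD of the negative controls was 1.90 to 4.06 intensity units on HFD arrays and 3.60 to 6.51 on LFD arrays, and their part in the detection difference was not tested.

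Within a diet the number of called receptors was not detectably different after UNX. On the HFD it averaged 188 ± 9.32 in UNX and 176 ± 52.2 in sham mice (SD, n = 4 and 3; exact permutation p = 0.800, smallest possible 0.0571). On the LFD it averaged 97.8 ± 21.5 in UNX and 77.0 ± 14.3 in sham mice (SD, n = 4 each; exact permutation p = 0.200, smallest possible 0.0286). The HFD difference rests on HFD-sham replicate 1, without which it was -18.25 genes, lower in UNX.

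The 198 detected receptors fell into 4 classes by the arrays that called them. Of these, 39 (19.7%) were called on all 15 arrays, against 84.3% of all genes that met the rule. Another 65 (32.8%) were called on HFD arrays only, against 4.25% of all genes. In 2 other chemoreceptor families, described below, these shares were 21.4% and 36.8%, so the trait is not particular to Olfr genes. A further 93 were called on some arrays of both days, and Olfr303 on 3 LFD arrays only. The mean normalised log2 signal of the 39 receptors detected on all arrays ran from -4.79 to 1.01, with a median of -3.77, above the highest floor in each case.

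**Figure D2:**
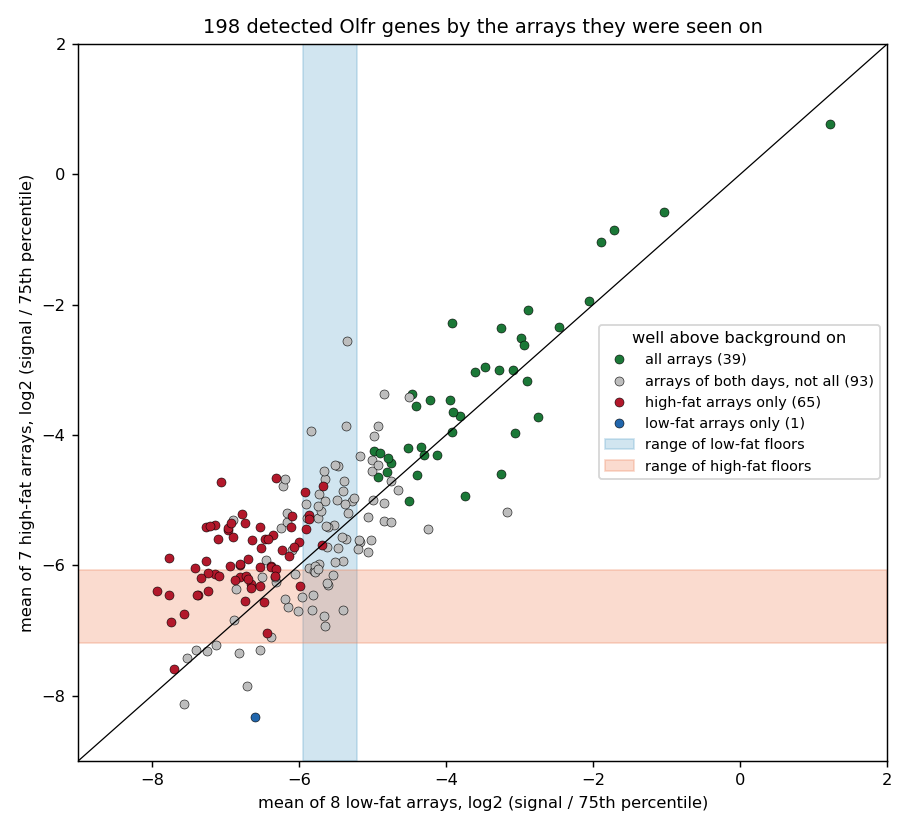
Mean normalised log2 signal of each detected receptor on HFD arrays (vertical axis) against LFD arrays (horizontal axis), coloured by the arrays that called it; bands span each diet's floors and the line marks equal signal. The 39 receptors called on all arrays lie beyond both bands, and the 65 called on HFD arrays only lie within or left of the LFD band.

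Most receptors called on HFD arrays only lay, on those arrays, below the highest LFD floor. Of the 65, 32 had an HFD mean below every LFD floor, 28 lay between the lowest and the highest, and 5 lay above all of them. The 5, named after their values were seen, were Olfr661 (HFD mean -4.66), Olfr190 (-4.72), Olfr9 (-4.78), Olfr456 (-4.88) and Olfr324 (-5.21). All but Olfr324 were called on all 7 HFD arrays. Olfr324 lay at -5.73, -0.62 and -6.53 in HFD-sham, so that its mean rests on replicate 2.

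Olfr190 lay at -4.82, -4.10, -4.81 and -4.80 in HFD-UNX, -4.76, -4.31 and -5.41 in HFD-sham, -7.49, -6.23, -7.53 and -7.06 in LFD-UNX and -6.70, -7.43, -7.45 and -6.64 in LFD-sham. Olfr190 was chosen by its level on these arrays, so its distance between diets is a description. The diets did not overlap, and against the LFD floors it was at least 2.05-fold higher in HFD-UNX and at least 1.76-fold higher in HFD-sham. For such bounds the mean of the bright group was set against each dim array's floor or the probe's own signal, whichever was higher. A second probe of Olfr190 was well above background on no array and pointed the other way (log2 -1.01 in sham mice and -0.53 in mice with 1 kidney). Olfr456 had a second probe, called on 10 arrays. Only 7 arrays are HFD, so that probe was called on LFD arrays too. The class of Olfr456, called on HFD arrays only, thus holds for its brightest probe alone. The second probe pointed the other way in both diet comparisons (log2 -0.61 in sham mice and -0.15 in mice with 1 kidney), so the direction of Olfr456 is unsettled. The second probe of Olfr586, another receptor called on all 7 HFD arrays and no LFD array, was opposed likewise (-0.93 and -0.74).

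In bulk RNA, fewer cells of a type and less RNA per cell cannot be told apart. Within groups, the receptors detected on all arrays varied somewhat more than other genes. The median within-group SD of the normalised log2 signal was 0.30 for these 39, 0.43 for the 65 called on HFD arrays only and 0.25 for the 13533 genes called on all arrays.

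The 12 receptors with the brightest probes among the 39 were Olfr544, Olfr1368, Olfr373, Olfr1466, Olfr1229, Olfr1443, Olfr1252, Olfr1347, Olfr521, Olfr1008, Olfr522 and Olfr1402. Of these, Olfr373, Olfr1252, Olfr1008 and Olfr1347 passed in a diet comparison, described below. The other 8 did not, and most of these had group means that lay near each other. Over the 4 groups the mean of Olfr1368 ran from -1.09 to -0.57, that of Olfr1229 from -2.07 to -1.86, that of Olfr1443 from -2.56 to -2.31, that of Olfr521 from -3.12 to -2.45, that of Olfr522 from -3.30 to -2.66 and that of Olfr1402 from -3.30 to -2.87. Olfr1466 varied more, with within-group SDs of up to 0.98.

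Olfr544, the azelaic acid receptor, lay at 0.61, 0.66, 1.50 and 0.80 in HFD-UNX, 0.31, 1.44 and 0.08 in HFD-sham, 1.32, 0.93, 1.14 and 1.54 in LFD-UNX and 1.50, 1.18, 1.10 and 1.07 in LFD-sham. The groups overlapped in each comparison and HFD-sham spread most. Between diets it differed by a log2 of -0.60 ± 0.29 in sham mice and -0.34 ± 0.27 in mice with 1 kidney (SE; limma adjusted p = 0.189 and 0.438). In sham mice it passed without HFD-sham replicate 2 (log2 -1.01, adjusted p = 0.0285), without slide 2 (-0.90, 0.0161) and with slides 1 and 2 as a fixed block (-0.93, 0.0434). In mice with 1 kidney it passed without slide 2 (-0.60, 0.0193).

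Olfr558, known from renal vessels, was higher on the HFD in mice with 1 kidney. It lay at -3.67, -3.56, -3.46 and -3.28 in HFD-UNX, against -4.29, -3.73, -4.24 and -4.27 in LFD-UNX. The arrays did not overlap, and the signal was 1.56-fold higher (limma adjusted p = 0.0153), a call lost without LFD-UNX replicate 4 (adjusted p = 0.0504) or with quantile normalization (0.0536). In sham mice it lay at -3.37, -3.52 and -3.37 in HFD-sham, against -3.52, -4.04, -3.64 and -3.87 in LFD-sham, and did not pass (adjusted p = 0.177). Olfr1393 of the proximal tubule lay at -4.70 to -3.41 in HFD-UNX, -4.64 to -3.42 in HFD-sham, -4.38 to -3.62 in LFD-UNX and -4.21 to -3.36 in LFD-sham. Its groups overlapped in every comparison and none passed.

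Olfr78 was at the limit of detection, called on 1 of 4 HFD-UNX arrays, 2 of 3 HFD-sham arrays and no LFD array. It lay at -6.41 to -5.99 in HFD-UNX, -7.12 to -5.86 in HFD-sham, -7.29 to -5.79 in LFD-UNX and -7.68 to -6.44 in LFD-sham, around or below the floors, and passed in neither diet comparison (adjusted p = 0.214 in sham mice and 0.339 in mice with 1 kidney). Of other receptors studied outside the nose, Olfr16 was called on 1 array, and Olfr90 and Olfr31 on none. All 9 juxtaglomerular and vascular smooth muscle markers were called on all arrays, and their summed signal, in multiples of the 75th percentile, was 11.3 to 18.6 in HFD-UNX, 10.5 to 18.6 in HFD-sham, 10.6 to 21.2 in LFD-UNX and 21.1 to 24.6 in LFD-sham. Of these 9, Tagln alone passed between diets, lower in HFD-sham (log2 -1.11, adjusted p = 0.0106), and the renin gene Ren1 did not pass (adjusted p = 0.793 in sham mice and 0.949 in mice with 1 kidney).

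Among sham mice, diets were compared on kidneys left in place. Of the 39 receptors detected on all arrays, 8 passed higher and 4 lower in HFD-sham than in LFD-sham, at a limma adjusted p under 0.05 over all genes, where 5.13% and 8.08% of the genes called on all arrays did. The median log2 difference was 0.26 for the 39, with 29 positive, against -0.04 for the genes called on all arrays. This lean depended on the processing: with normexp applied to the raw spot signals, with an offset of 50, 11 of the 39 were positive, with a median of -0.11. Normexp changed the starting signal, the background correction and the offset together, and their separate parts were not tested.

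Olfr1350 had the largest increase among them. It lay at -2.22, -2.15 and -2.92 in HFD-sham, against -4.08, -4.05, -3.75 and -3.75 in LFD-sham. No array overlapped, and the signal was 2.79-fold higher in HFD-sham (log2 1.48 ± 0.21 SE; limma adjusted p = 0.00192). Olfr373 lay at -0.68, -0.71 and -1.25 in HFD-sham, against -1.81, -1.87, -1.69 and -1.71 in LFD-sham, again apart (log2 0.89, adjusted p = 0.00643). Olfr482 (log2 0.63, adjusted p = 0.0107) and Olfr549 (0.55, 0.0373) were also higher. Olfr1008 (log2 0.99), Olfr629 (0.81), Olfr1382 (0.80) and Olfr1252 (0.67) also passed, and all 4 calls were lost without HFD-sham replicate 2, with adjusted p of 0.0838, 0.0897, 0.186 and 0.181. Olfr629 was lost without LFD-sham replicate 1 as well (0.0584), and Olfr1382 and Olfr1252, near the threshold at 0.0458 and 0.0435, in most fits that left out 1 array.

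In HFD-sham 4 of the 39 passed lower, among 10 with a negative difference. Olfr612 lay at -4.96, -4.87 and -6.50 in HFD-sham, against -3.17, -4.05, -3.33 and -3.22 in LFD-sham, 3.99-fold lower (adjusted p = 0.00312). Olfr738 lay at -4.98, -5.82 and -5.45 in HFD-sham, against -3.71, -3.64, -3.72 and -3.68 in LFD-sham, 3.32-fold lower (adjusted p = 0.000355). Neither overlapped between the groups, nor did Olfr681 (2.82-fold lower, adjusted p = 0.00398) or Olfr362 (2.63-fold lower, 0.0129). Olfr612, Olfr681 and Olfr362 were lowest on HFD-sham replicate 3, the array with the highest 75th percentile signal, and all 4 still passed without that array. A second probe of Olfr681, called on 3 arrays, pointed the other way (log2 0.44), and with both probes averaged Olfr681 did not pass (log2 -0.53, adjusted p = 0.564). Without slide 2, Olfr362 did not pass (log2 -0.85).

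Outside the 39, Olfr441 and Olfr1412 fell furthest in HFD-sham. Olfr441 lay at -7.00, -4.89 and -6.43 in HFD-sham, with 2 of 3 arrays well above background, against -3.19, -4.14, -3.24 and -3.50 in LFD-sham with all 4. The fitted log2 difference was -2.59 (adjusted p = 0.0112), and it includes 1 HFD-sham signal below its array's floor. Olfr1412 was called on no HFD-sham array and 1 of 4 LFD-sham arrays (adjusted p = 0.00268), so most of its signals in both groups were not well above background and no fold is given. With a common floor for all arrays its log2 difference was -0.09 and it did not pass (adjusted p = 0.453).

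**Figure D3:**
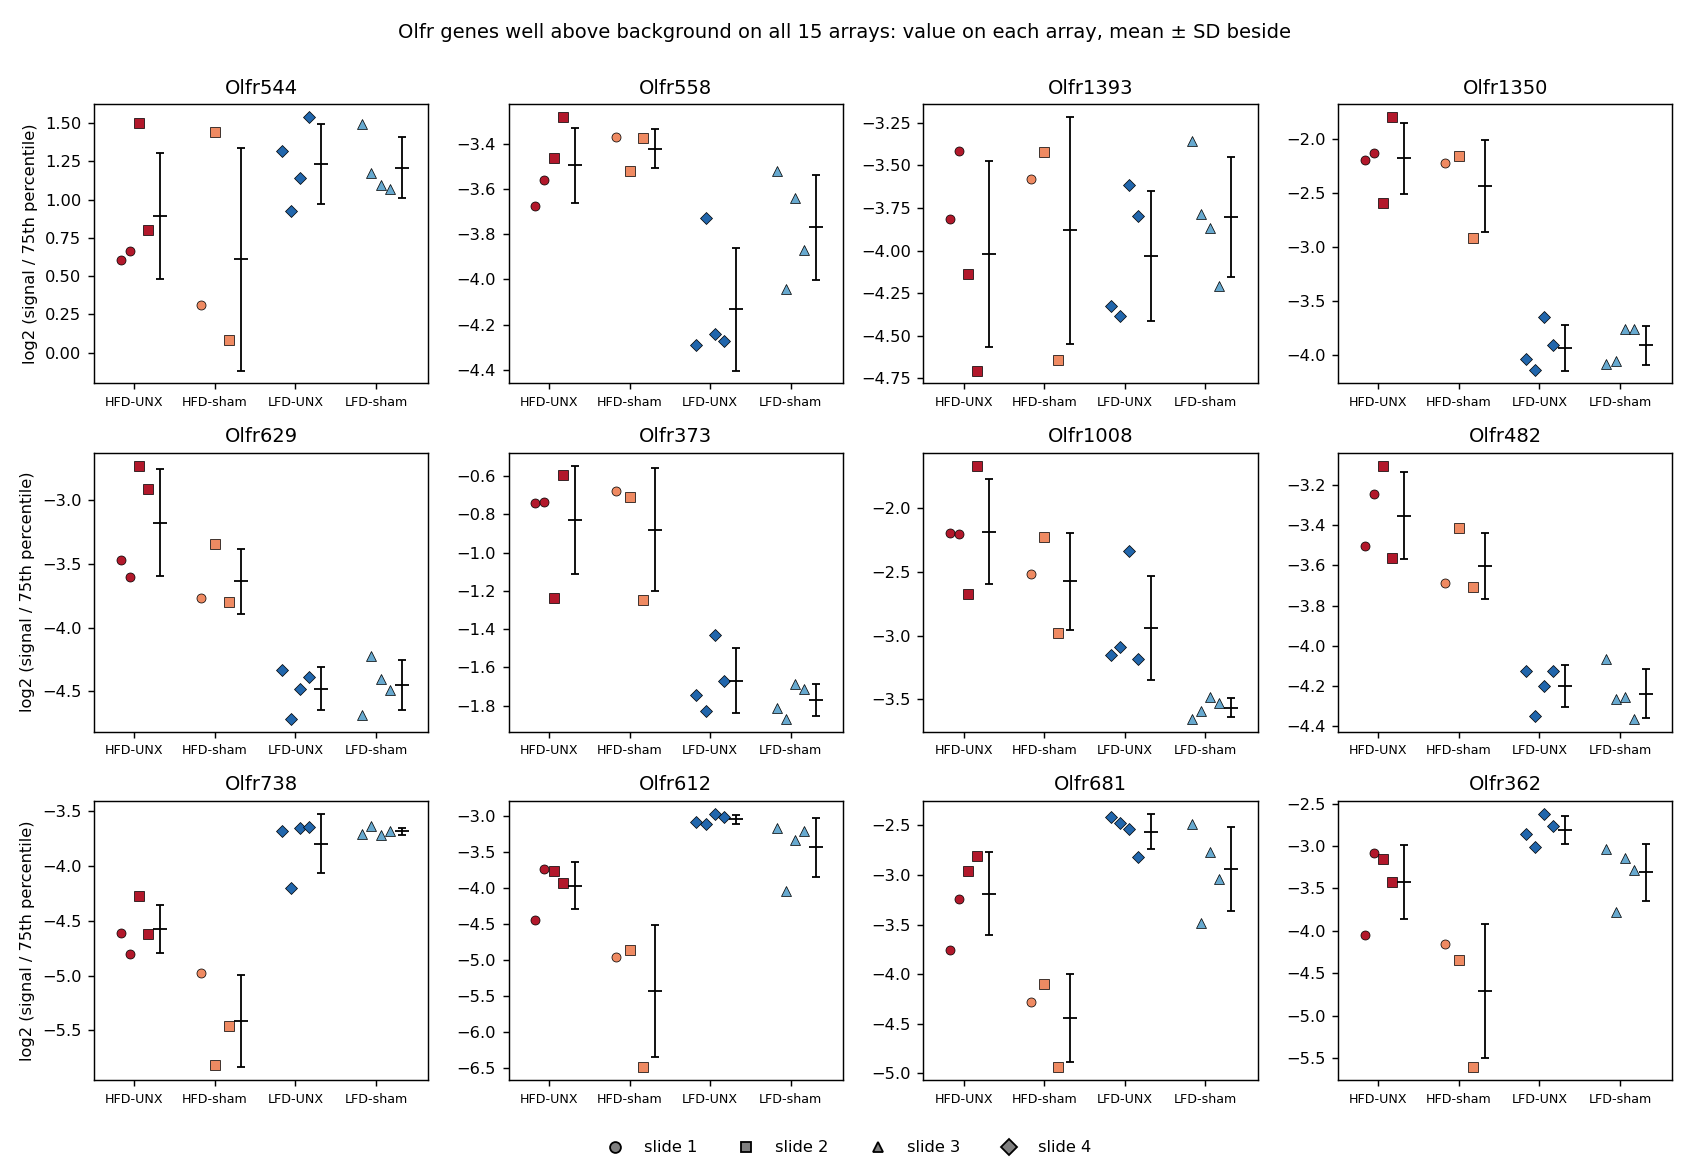
Normalised log2 signal of 12 receptors called on all arrays, by group, with a point per array, shapes for slides and mean ± SD beside each group; vertical ranges differ between panels. Olfr1350 is higher on every HFD array than on every LFD array, by 3.37-fold in mice with 1 kidney, and Olfr738, Olfr612, Olfr681 and Olfr362 are lowest in HFD-sham.

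Mice with 1 kidney gave the same diet comparison, with log2 differences from arrays that those in sham mice did not use. The scan days were the same, and the p-values of both comparisons came from a joint fit of all groups. Of the 39, 10 passed higher and 1 lower in HFD-UNX than in LFD-UNX, where 5.94% and 7.3% of the genes called on all arrays did. The median log2 difference was 0.29, with 28 positive (24 with quantile normalization and 28 with normexp), against -0.04 for the genes called on all arrays.

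Olfr1350 lay at -2.19, -2.13, -2.59 and -1.80 in HFD-UNX, against -4.04, -4.14, -3.65 and -3.90 in LFD-UNX, 3.37-fold higher (log2 1.75 ± 0.20 SE; limma adjusted p = 0.000253). Olfr629 lay at -3.47, -3.60, -2.73 and -2.91 in HFD-UNX, against -4.33, -4.72, -4.48 and -4.38 in LFD-UNX, 2.47-fold higher (adjusted p = 0.00132). Neither overlapped, and both kept their calls whichever array was left out. Olfr482 (1.80-fold, adjusted p = 0.00150), Olfr373 (1.79-fold, 0.00479), Olfr1347 (1.51-fold, 0.00711) and Olfr1252 (1.84-fold, 0.00834) were higher with the groups apart. Olfr531 (1.98-fold, adjusted p = 0.0298), Olfr1382 (1.83-fold, 0.0225) and Olfr1008 (1.69-fold, 0.0435) lost their calls without HFD-UNX replicate 2 or LFD-UNX replicate 2, among others, reaching adjusted p of 0.0832, 0.0693 and 0.119 when 1 array was left out.

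Olfr738 was the only receptor of the 39 that passed lower in HFD-UNX, among 11 with a negative difference. It lay at -4.61, -4.80, -4.28 and -4.62 in HFD-UNX, against -3.68, -4.20, -3.66 and -3.64 in LFD-UNX, 1.72-fold lower with no overlap (adjusted p = 0.0120). Olfr612 (adjusted p = 0.0617), Olfr681 (0.107) and Olfr362 (0.179) did not pass here. Outside the 39, Olfr646 was lower by a log2 of -1.41 (adjusted p = 0.0306), but was called on 1 of 4 HFD-UNX arrays and no LFD-UNX array, so no fold is given. Its call was lost without HFD-UNX replicate 1 or 2 or LFD-UNX replicate 1 or 4, with adjusted p of up to 0.0952. It was also lost with a common floor for all arrays (log2 -0.04, adjusted p = 0.541) and without slide 1 (-0.69, 0.229).

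Both comparisons called 7 of the 39 higher and 1 lower. The 7 were Olfr1350, Olfr629, Olfr1252, Olfr1382, Olfr482, Olfr373 and Olfr1008, and the other was Olfr738. How many of all genes passed alike in both comparisons was not counted, so nothing is read from these numbers. No array entered both log2 differences, but all groups were fitted together, so the adjusted p-values of both comparisons draw on all arrays. The 2 sets of calls are therefore not separate. The scan days were also the same, so the likeness of the comparisons does not separate diet from scan day. Slide taken as a random block left none of the 39 past the threshold, and of all 16055 genes 14 in sham mice and 26 in mice with 1 kidney. With normexp none of the 39 passed either, and of all genes 152 and 316 did.

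**Figure D4:**
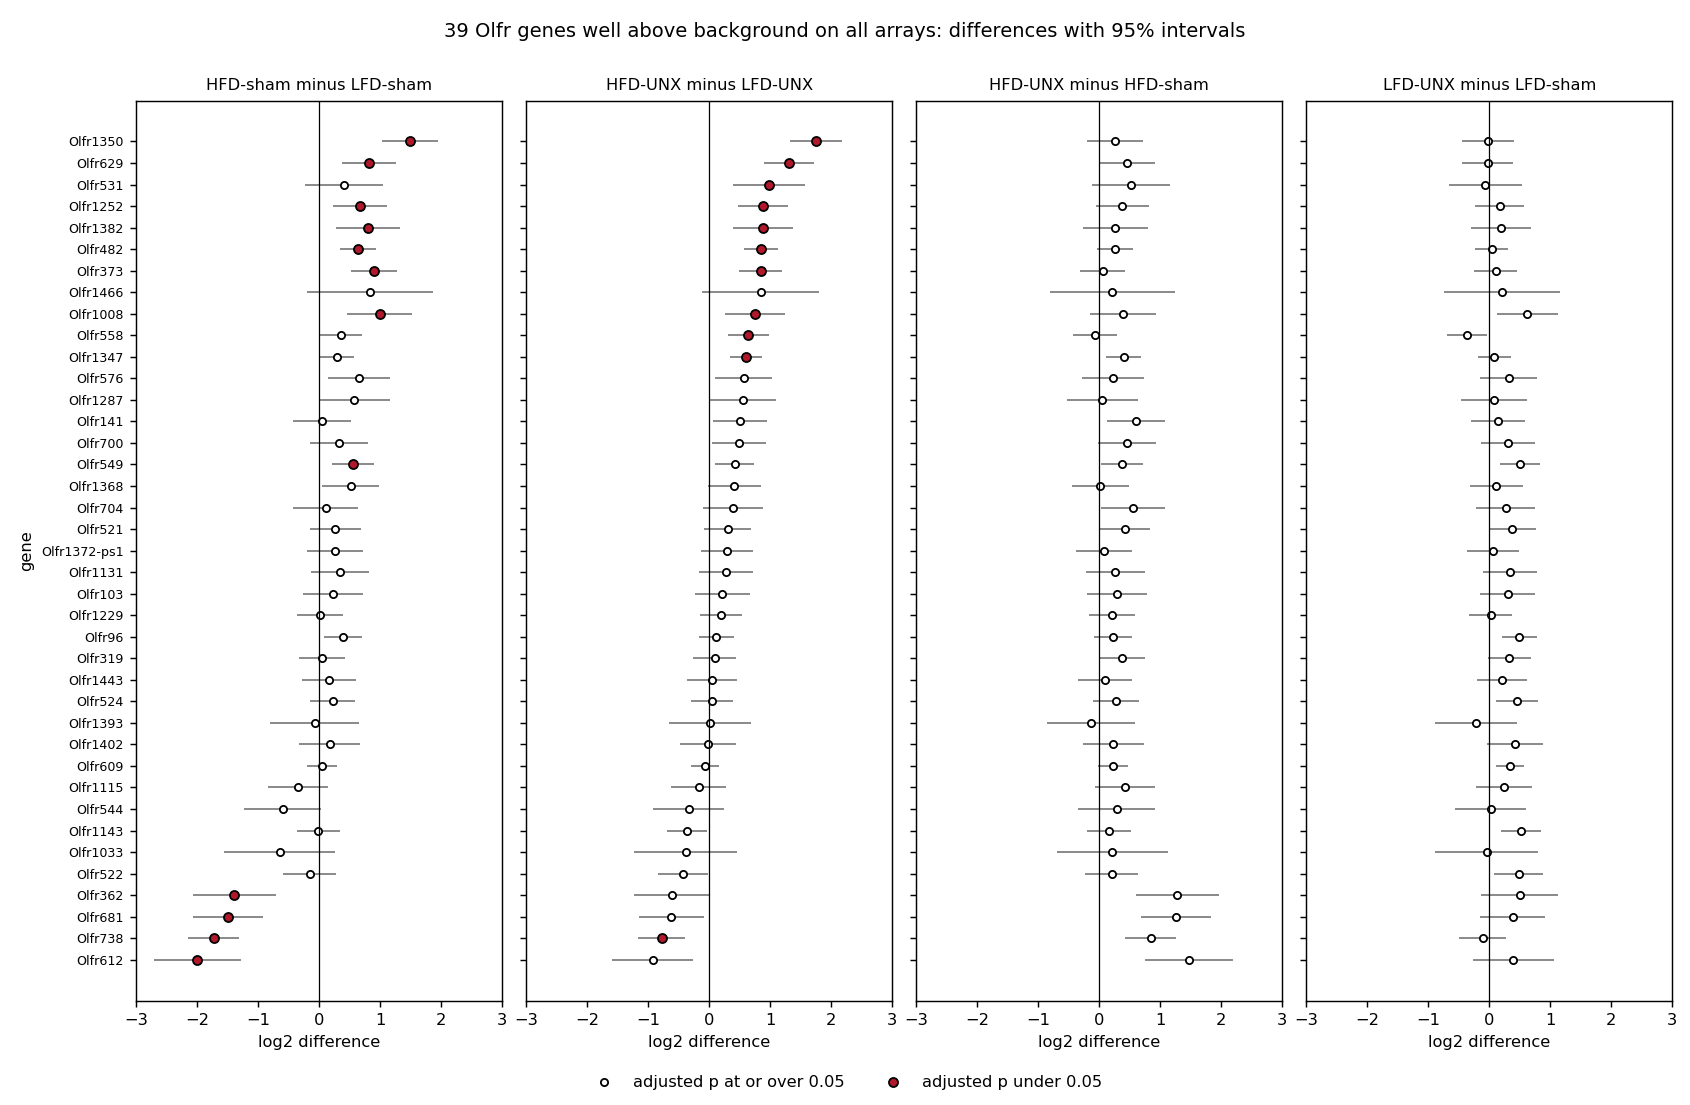
Log2 differences of the 39 receptors called on all arrays (points, filled where the adjusted p is under 0.05) with 95% intervals (lines), in 4 panels for HFD-sham minus LFD-sham, HFD-UNX minus LFD-UNX, HFD-UNX minus HFD-sham and LFD-UNX minus LFD-sham. Filled points number 12 in the first panel and 11 in the second, with none in the surgery panels.

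Over all 198 detected receptors the calls were 46 higher and 10 lower in HFD-sham, against 6.48% and 7.41% of all genes. In HFD-UNX they were 56 higher and 2 lower, against 7.67% and 6.52%. Of the higher calls, 24 and 29 belonged to receptors called on HFD arrays only, a class that the same arrays define, so nothing is read from their number. With a common floor set for all arrays the calls were 15 higher and 5 lower in sham mice, and 30 and 4 in mice with 1 kidney, where 13.6% and 13.8% of all genes were called in either direction. In all, 123 of the 198 passed in neither comparison, a number that was not counted for all genes.

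Olfr339 had the largest increase of all detected receptors in both comparisons. It lay at -2.31, -2.55, -3.04 and -2.38 in HFD-UNX and -2.80, -2.61 and -2.21 in HFD-sham, against -5.44, -4.96, -4.61 and -5.64 in LFD-UNX, with 2 of 4 arrays well above background, and -5.57, -6.00, -5.19 and -5.39 in LFD-sham, with none. The diets lay far apart. It was at least 7.27-fold higher in HFD-sham (limma adjusted p = 7.56e-05) and in HFD-UNX the fitted log2 difference was 2.59 (7.63e-05), which includes the 2 LFD-UNX signals that were not well above background. With the random slide block Olfr339 still passed in both (adjusted p = 0.0240 in sham mice and 0.0314 in mice with 1 kidney), and the only other detected receptor to do so in either was Olfr1170, in mice with 1 kidney. Olfr1170 was called on 6 HFD arrays and no LFD array, so it met the detection rule through the diet in which it was higher. The same holds for Olfr339, called on every HFD array but on only 2 LFD arrays, fewer than the 3 the rule asks. The tests of both are therefore given as a description. Under normexp no receptor passed, Olfr339 included.

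Olfr225 passed between diets in mice with 1 kidney and not in sham mice. It lay at -4.93, -4.65, -5.37 and -4.33 in HFD-UNX, against -6.34, -6.66, -6.71 and -5.92 in LFD-UNX, where no array was well above background (at least 1.80-fold higher in HFD-UNX, adjusted p = 0.00157). With a common floor for all arrays the call was lost (log2 0.44, adjusted p = 0.0603). It lay at -5.10, -5.33 and -5.72 in HFD-sham, against -5.06, -5.70, -5.61 and -5.25 in LFD-sham, where the groups overlapped. The difference between these effects, tested as the interaction, did not pass (log2 1.57, adjusted p = 1.000).

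Surgery within the HFD set the kidney left after UNX against that of sham mice. No detected receptor passed limma's test, where 0% of all genes did, and 38 of the 198 had an unadjusted p under 0.05, against 4.65% of all genes. Of the 39 detected on all arrays 9 had one, against 3.79% of the genes called on all arrays. Their log2 differences were positive, higher in HFD-UNX, for 37 of the 39, with a median of 0.26, against 0.02 for the genes called on all arrays. With quantile normalization 35 were positive and with normexp 38.

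The largest of these differences were those of Olfr612, Olfr362, Olfr681 and Olfr738, the receptors that were low in HFD-sham, and they rest on the same HFD-sham arrays. Olfr612 lay at -4.45, -3.75, -3.77 and -3.93 in HFD-UNX, against -4.96, -4.87 and -6.50 in HFD-sham (log2 1.47, adjusted p = 0.715). Olfr681 lay at -3.76, -3.24, -2.96 and -2.80 in HFD-UNX, against -4.28, -4.10 and -4.94 in HFD-sham (log2 1.25, adjusted p = 0.670). Neither overlapped. Both HFD groups lie on slides 1 and 2, and the difference was 0.78 within slide 1 and 1.64 within slide 2 for Olfr681, and 0.86 and 1.83 for Olfr612, where slide 1 has a lone sham array. With slide 1 left out, Olfr681 (log2 1.64, adjusted p = 0.0476) and Olfr738 (1.19, 0.0414) passed higher in HFD-UNX, where 178 of all genes (1.11%) did. Olfr406, called on HFD arrays only, lay at -4.98, -5.29, -5.37 and -5.51 in HFD-UNX, against -6.45, -5.90 and -6.05 in HFD-sham (log2 0.85, adjusted p = 0.697). Olfr324, Olfr1316 and Olfr815 were the receptors named on the lower side, at log2 -1.62, -0.49 and -0.51 (adjusted p = 0.999 each), with overlapping groups.

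Surgery within the LFD made the same comparison on chow. No detected receptor passed limma's test, where 0.00623% of all genes did, and 37 of the 198 had an unadjusted p under 0.05, against 3.23%. Of the 39 detected on all arrays 8 had one, against 2.39% of the genes called on all arrays. The log2 differences were positive, higher in LFD-UNX, for 32 of the 39, with a median of 0.21, against 0.01. With quantile normalization 32 were positive and with normexp 30.

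Olfr1232 lay at -5.59, -5.26, -5.90 and -4.77 in LFD-UNX, with 2 of 4 arrays well above background, against -7.16, -6.63, -7.47 and -7.76 in LFD-sham, with none (at least 1.20-fold higher in LFD-UNX, adjusted p = 0.384). Olfr1232 was also called on 3 HFD-UNX arrays and on no HFD-sham array. It thus met the detection rule through UNX arrays alone, and its difference is a description. Olfr353 lay at -5.29, -5.07, -5.16 and -4.53 in LFD-UNX, with 3 of 4, against -6.98, -5.95, -5.95 and -5.95 in LFD-sham, with none (at least 1.55-fold higher, adjusted p = 0.433). Neither overlapped. Olfr225 ran the other way, at least 1.20-fold lower in LFD-UNX (adjusted p = 0.613), with no LFD-UNX array and all 4 LFD-sham arrays well above background. Olfr166 (log2 0.74, adjusted p = 0.637), Olfr469 (-0.89, 0.857) and Olfr699 (-1.38, 1.000) were the other receptors named by the lowest p-values. Olfr166 and Olfr469 were called on no LFD array, so their differences here compare signals that were not well above background.

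Diet dependence of the surgical effect was tested as an interaction, which also carries the slide difference within the LFD. No detected receptor passed limma's test, where 0% of all genes did, and 16 had an unadjusted p under 0.05, against 1.36%. Of the 39 detected on all arrays 3 had one, against 0.791%. The receptors with the lowest p-values on each side were Olfr225 (log2 1.57), Olfr469 (1.42) and Olfr738 (0.95), and Olfr1316 (-1.32), Olfr1232 (-1.20) and Olfr1134 (-0.68). A positive value means a larger UNX-minus-sham difference on the HFD. Olfr469 was called on no LFD array, so its value includes signals that were not well above background.

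Genes of olfactory signal transduction were partly present. Of 19 on the array 15 met the detection rule, and 9 were called on all arrays. Gnal was called on 12 arrays and Adcy3 on 13, and neither passed between diets. Cnga2, the main subunit of the olfactory cyclic nucleotide-gated channel, averaged -4.25 ± 0.37 in HFD-sham and -5.61 ± 0.15 in LFD-sham (SD, n = 3 and 4; log2 1.36, limma adjusted p = 0.00178), where 1 of 4 LFD-sham arrays was well above background, so that the difference includes signals near the floor. It averaged -4.18 ± 0.18 in HFD-UNX and -5.09 ± 0.30 in LFD-UNX (SD, n = 4 each; log2 0.91, limma adjusted p = 0.00514). Besides Cnga2, Grk3, a receptor kinase, passed higher in HFD-sham (log2 0.44, adjusted p = 0.0473) and the channel subunit Cngb1 in HFD-UNX (0.60, 0.00958). The list's median log2 difference was 0.21 in sham mice and 0.18 in mice with 1 kidney, and no member passed for surgery.

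Proteins of the Rtp and Reep families carry olfactory receptors to the cell surface. Of 7 trafficking genes 6 met the rule. Rtp2 was higher in HFD-sham (log2 1.18, adjusted p = 0.00688) and in HFD-UNX (1.00, 0.00852), and Rtp1 was called on no array. Reep1 was called on 1 HFD-UNX array, 2 HFD-sham arrays and no LFD array, near the floors, and is given as a description. Of 13 genes that act in the choice of a receptor by olfactory neurons 11 met the rule. The histone methyltransferase Ehmt1 was higher in HFD-sham (log2 1.30, adjusted p = 0.0151) and HFD-UNX (1.65, 0.00279), and the transcription factor Atf5 was lower in both (-0.81, 0.00316, and -0.50, 0.0195). Cbx5, a heterochromatin protein, was lower in HFD-UNX (-1.19, adjusted p = 0.0158), and Lhx2 and Ebf2 were called on 2 arrays each.

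Markers of olfactory neurons and epithelium were mostly absent. Of 16 on the array, 6 met the rule, and Omp and Ermn were called on all arrays. Stoml3, Gng13, Rtp1, Umodl1, Cyp2g1 and Obp2a were called on none. Omp, the olfactory marker protein of mature neurons, averaged -4.00 ± 0.48 in HFD-UNX, -3.95 ± 0.45 in HFD-sham, -3.64 ± 0.19 in LFD-UNX and -3.76 ± 0.22 in LFD-sham (SD, n = 4, 3, 4 and 4), and passed in no comparison. The summed signal of the 6 was 11.3 to 50.9 multiples of the 75th percentile in HFD-UNX, 13.8 to 34.6 in HFD-sham, 34.3 to 58.1 in LFD-UNX and 18.5 to 60.1 in LFD-sham, ranges that overlap. Ermn made up nearly all of this sum, with mean normalised log2 signals of 4.55 in HFD-UNX, 4.54 in HFD-sham, 5.42 in LFD-UNX and 5.29 in LFD-sham, and passed in no comparison. Cnga2, which passed above, is among the 6.

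Lymphocyte markers moved with diet and scan day on the same arrays. The summed signal of 12 lymphocyte markers was 3.94 to 5.06 in HFD-UNX, 3.39 to 4.63 in HFD-sham, 2.28 to 2.75 in LFD-UNX and 2.57 to 2.91 in LFD-sham, with no overlap between diets, and 2 of them passed higher in HFD-sham and 5 in HFD-UNX. That of 10 adipocyte markers was 17.6 to 28.8 in HFD-UNX, 17.8 to 53.3 in HFD-sham, 40.3 to 57.4 in LFD-UNX and 50.7 to 73.5 in LFD-sham, with 2 lower in HFD-sham, and 1 higher and 2 lower in HFD-UNX. That of 12 liver markers was 50.3 to 57.2, 35.4 to 47.8, 37.2 to 80.1 and 36.0 to 91.5 in the same groups. Of these 12, 1 passed higher and 2 lower in HFD-sham (median log2 difference -1.86), and 1 higher and 4 lower in HFD-UNX (-1.07). The part of these cell markers in the receptor differences was not tested.

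Other chemoreceptor families were detected as well. Of 164 type 1 vomeronasal receptors (Vmn1r) 25.6% met the rule and 12 were called on all arrays, and of 88 of type 2 (Vmn2r) 21.6% and 6, against 18.5% and 39 for Olfr. Of the 42 Vmn1r genes that met it 9 (21.4%) were called on HFD arrays only, and of the 19 Vmn2r genes 7 (36.8%). Called Vmn1r genes numbered 25 to 46 on HFD arrays and 17 to 30 on LFD arrays. Called Vmn2r genes numbered 12 to 19 and 6 to 12. Of 35 bitter taste receptors 6 met the rule, as did all 3 sweet and umami receptors and 1 of 14 trace amine receptors. Of the 12 Vmn1r genes called on all arrays, 1 passed higher in HFD-sham, 3 in HFD-UNX and none lower. All 12 had positive differences in both surgery comparisons, with medians of 0.20 on the HFD and 0.39 on the LFD, none of which passed. Of the 6 Vmn2r genes called on all arrays, 2 were positive and 4 negative in each surgery comparison, with medians of -0.04 and -0.11. Of the 13533 genes called on all arrays, 7251 were positive on the HFD and 7029 on the LFD.

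The receptors detected on all arrays were unevenly spread over the chromosomes. Chromosome 7, which holds the mouse class I receptors besides many of class II, carried 17 of the 39 (43.6%), against 21.6% of all Olfr genes on the array. Chromosome 2 carried 10 (25.6%), against 25.9%, and chromosome 9 none, against 12.2%. Genes of a cluster share sequence, so these counts are given without a test. A receptor gene lay on both sides of 30 of the 39 (76.9%), against 84.1% of all Olfr genes. The 9 with another gene on a side included Olfr1350 next to Zim1, Olfr1393 next to Mgat1, and Olfr1402 between Bcl9 and Chd1l. One of the 39, Olfr1372-ps1, is annotated as a pseudogene.

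Repeat probes gave little cross-check. A further probe was present for 26 of the 198, and 19 of these were well above background on no array. For the 39 detected on all arrays, 7 further probes were present and 2 met the rule. That of Olfr1382 pointed the same way in both diet comparisons (log2 1.03 in sham mice and 1.61 in mice with 1 kidney), and that of Olfr681 is given above. Those of Olfr373 (-1.81 and -0.80) and Olfr629 (-1.20 and -0.16), each called on 1 array, pointed the other way from the probe used. The other 3 were called on no array. Receptor paralogs are similar in sequence, and whether a probe also binds transcripts of another receptor was not tested.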

How the data were processed

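Gene expression was measured in 15 kidney RNA samples, 1 array each. Per the submitters' processing notes, the authors made the deposited spot intensity values with Agilent Feature Extraction 10.7, and per the file headers these are background-subtracted and detrended with no normalization between arrays. RefSeq accessions named 27234 of the 39429 probes other than controls, through RefSeq's gene table of GRCm38.p6, which served for names, chromosomes and neighbours. The headers give mm9 for the array design. The log2 intensity was taken minus each array's 75th percentile, without spots marked as outliers, and repeat spots were averaged. Genes detected on 3 or more arrays entered the fit, by their brightest probe. All 4 groups were fitted together with limma 3.58.1 in R 4.3.3, with Benjamini-Hochberg adjustment over 16055 genes. The fit was checked on simulated data without slide or scan-day effects, so that check says nothing about such effects. Counts per array were compared by exact permutation tests (scipy 1.17.1). The number of arrays limits precision.

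The receptors and gene lists were chosen with earlier results of these data known. Receptors were named by rule: the 12 brightest on all arrays, the 6 highest and lowest passing differences per diet comparison, the lowest p-values for surgery and interaction, and a panel of receptors studied outside the nose. Other receptors were named after their values were seen. Alternatives were quantile normalization, normexp (offset 50, on raw median intensity, as the mean was not used here), the authors' value table, a common floor, other filters and probe rules, slide and replicate blocks, the compared groups alone, and each array left out. An intensity trend, counts at a common threshold and leaving out slide 1 or slide 2 were added after seeing the data. Same-numbered arrays did not all deviate together (21 pairs, r of -0.153 to 0.435, 5 of them over 0.1), so the numbers were not taken to pair mice across all groups. Within the HFD all 3 pairs were over 0.1 (0.122 to 0.435), 2 of them on a shared slide, so a block on the number among HFD arrays alone was added after seeing the data. The labels give 1 mouse per array. A marker gene on the neuron list is not reported here.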

Additional observations from a re-analysis of the deposited data

Results flagged for a closer look

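Single arrays were checked in 120 combinations of a group with a named receptor or with the number of called receptors. They stood apart from the other 3 of their group in 8, all of them for receptors, judged by the gap to the nearest array over the group's range (Dixon's criterion). Chance marks about 1 in 20 such groups, and HFD-sham, with 3 arrays, was not checked. Of receptors called on all arrays, the normalised log2 signals that stood apart were Olfr1229 at -2.30 on LFD-sham replicate 2 (others -2.01 to -1.98), Olfr1008 at -2.33 on LFD-UNX replicate 3 (others -3.18 to -3.09), Olfr1402 at -3.20 on HFD-UNX replicate 4 (others -2.83 to -2.76), Olfr738 at -4.20 on LFD-UNX replicate 2 (others -3.68 to -3.64) and Olfr558 at -3.73 on LFD-UNX replicate 2 (others -4.29 to -4.24). Of receptors not called on all arrays they were Olfr353 at -6.98 on LFD-sham replicate 1 (others -5.95 to -5.95), Olfr699 at -4.97 on LFD-sham replicate 2 (others -5.97 to -5.89) and Olfr815 at -7.47 on LFD-sham replicate 1 (others -8.06 to -8.03). The LFD-UNX arrays that stood apart for Olfr1008, Olfr738 and Olfr558 each lay toward the HFD-UNX values.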

How the results depend on the processing

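Of 27 named differences that passed, 27 still passed with the authors' value table and with no filter on dim probes, 25 with quantile normalization, 22 with a common floor, 2 with slide as a random block and 0 with normexp, and none changed direction. The detected receptors called, 56 in sham mice and 58 in mice with 1 kidney, numbered 0 and 0 with normexp, 20 and 34 with a common floor, 586 and 339 with no filter (over all Olfr genes, mostly lower, near background), 12 and 11 with genes called on all 15 arrays alone, and 1 and 2 with the random block. Leaving out 1 array gave 42 to 63 and 46 to 65. For surgery within the HFD, 2 receptors passed without slide 1, against 0, among 178 of all genes. With the scanner's weaker mark for a positive and significant signal, 134 receptors were on all arrays, against 39, and 1 on arrays of a single day, against 66. The UNX-minus-sham number of called receptors on the HFD was -11 without slide 1 and -18.25 to 30.75 without 1 array. Directions turned for surgery within the HFD in Olfr324 (0.24 without slide 2, -2.73 to 0.22 without 1 array, the highest without HFD-sham replicate 2), Olfr1316 (0.22 with normexp) and Olfr815 (0.35 with normexp, 0.0928 without slide 2, -0.85 to 0.0103 without 1 array, the highest without HFD-sham replicate 2), and for the interaction with normexp in Olfr1316 (0.0698), Olfr1232 (0.23) and Olfr1134 (0.13). The cause was not tested. With a replicate block among HFD arrays alone, 0 receptors passed for surgery, as without it, against 24 of all genes and 0 without it. With the replicate number as a block over all arrays, 51 and 54 were called between diets and 0 for surgery, and 25 of the 27 named differences passed. Signal near background limits all receptors not called on every array.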
